A study of Mus musculus with 2 samples.

Results

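Antigen presentation genes were followed in long-read RNA sequencing of mouse adrenal gland, the endocrine organ whose cortex makes steroid hormones and whose medulla makes catecholamines. The members were all genes whose annotated name starts with H2-, the mouse name of the major histocompatibility complex (MHC), together with Cd74, B2m, Tap1, Tap2, Tapbp, Tapbpl, Ciita, Psmb8, Psmb9 and Psmb10. The GENCODE M21 annotation holds 55 such genes, and 34 of them had at least 1 read, of 16910 annotated nuclear genes with a read. They made up 300 of 125539 transcript models in replicate 1 and 150 of 65191 in replicate 2. Of the 34 genes, 29 lie on chromosome 17.

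The study holds 1 group of 2 libraries made from total adrenal RNA of 2-month-old females of the strain B6CASTF1/J, biological replicates 1 and 2, with no treatment named. The biosample labels number the animals 3 and 4, both library labels carry the number 3, and 1 donor identifier is given for both. An RNA input of 1 µg is given for replicate 1 only. Mice of this name carry a C57BL/6J and a CAST/EiJ copy of the MHC, while reads were placed on mm10, which is the C57BL/6J sequence. The deposited counts carry no allele, so the contribution of each parental copy was not tested.

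MHC class I molecules are built from a heavy chain and the light chain beta-2 microglobulin, and show peptides from inside the cell to CD8 T cells and natural killer cells. Their peptides are cut by the proteasome, carried into the endoplasmic reticulum by the transporter TAP and loaded with the help of tapasin. MHC class II molecules are found mainly on macrophages, dendritic cells and B cells, and show peptides from endosomes to CD4 T cells. Until then the invariant chain, encoded by Cd74, fills their groove.

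The stretches below come from GENCODE M21 transcripts on mm10, and are shown because 4 of the 12 alternative forms described further on, in Tapbp, H2-K1 and H2-D1, change these bases. They are C57BL/6J reference sequence, and no read sequence was available to place beside them. In Tapbp, which encodes tapasin, capitals mark 3 bases at the start of an exon that Tapbp-201 holds and Tapbp-206 lacks, in chr17:33926488-33926659 on the plus strand, with the intron left out.
Tapbp-201: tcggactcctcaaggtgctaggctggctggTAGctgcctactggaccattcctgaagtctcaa
Tapbp-206: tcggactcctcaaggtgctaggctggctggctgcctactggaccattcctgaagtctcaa
In H2-K1, a classical class I heavy chain, capitals mark 27 bases at the start of the last coding exon, in chr17:33996472-33996654 on the minus strand. Both lines end in the same stop codon, tga, at the end of the stretch that encodes the cytoplasmic tail.
H2-K1-201: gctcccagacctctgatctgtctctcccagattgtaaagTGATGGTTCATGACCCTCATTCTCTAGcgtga
H2-K1-205: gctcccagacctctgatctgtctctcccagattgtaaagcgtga
In H2-D1, the other classical class I heavy chain of this reference, capitals mark the first 114 bases of exon 3, which a form absent from M21 left out. The stretch shown is chr17:35263619-35263982 on the plus strand. The bases left out end in AG, the letters that close an intron.
H2-D1-202: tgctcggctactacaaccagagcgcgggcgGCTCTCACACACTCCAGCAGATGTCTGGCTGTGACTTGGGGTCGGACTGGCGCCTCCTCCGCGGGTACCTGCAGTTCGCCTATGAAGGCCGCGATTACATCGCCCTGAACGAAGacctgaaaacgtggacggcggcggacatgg
A further H2-D1 form used the start of a downstream exon as annotated in H2-D1-201, with 15 additional bases in capitals, in chr17:35266274-35266514 on the plus strand.
H2-D1-201: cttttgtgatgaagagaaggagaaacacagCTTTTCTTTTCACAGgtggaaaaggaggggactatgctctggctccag

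Levels are given as CPM, reads of a gene scaled by the reads of all annotated nuclear genes, of which there were 1209457 in replicate 1 and 502655 in replicate 2. Each read is of 1 cDNA molecule, so CPM were compared between genes without division by transcript length. Whether short and long transcripts were captured equally was not tested. With 3 counts taken as the floor, an unread gene may still have had up to 2.48 CPM in replicate 1 or 5.97 CPM in replicate 2. Markers of the adrenal were high in both libraries, where 5 of the cortex summed to 51999 and 67044 CPM and 5 of the medulla to 11580 and 6677 CPM. Markers of macrophages summed to 538 and 483 CPM, with 9 of 11 detected. Of the dendritic markers, Itgax, Xcr1, Clec9a and Cd209a had no read in either library, nor had the B cell markers Ms4a1 and Pax5 or the neutrophil markers S100a8, S100a9 and Ly6g. Ighm, of the B cell list, was read at 33.1 and 27.9 CPM, and Cd79a and Cd79b had at most 1 read in a library. In whole tissue, fewer cells of a type and less RNA per cell cannot be told apart.

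The members summed to 3831 CPM in replicate 1 (4634 reads) and 2992 CPM in replicate 2 (1504 reads), or 3412 ± 594 CPM (SD, n = 2). Of the 34 genes with a read, 22 were detected, meaning that each library held 3 or more reads of the gene. Their median level was 61.6 CPM against 35.2 CPM over all 9942 detected genes, and 13 of the 22 lay above the latter value. The classical class I heavy chains dominated. H2-D1 and H2-K1 together took 44.9% of member reads in replicate 1 (95% exact interval 43.5 to 46.4) and 39.7% in replicate 2 (37.2 to 42.2).

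**Figure D1:**
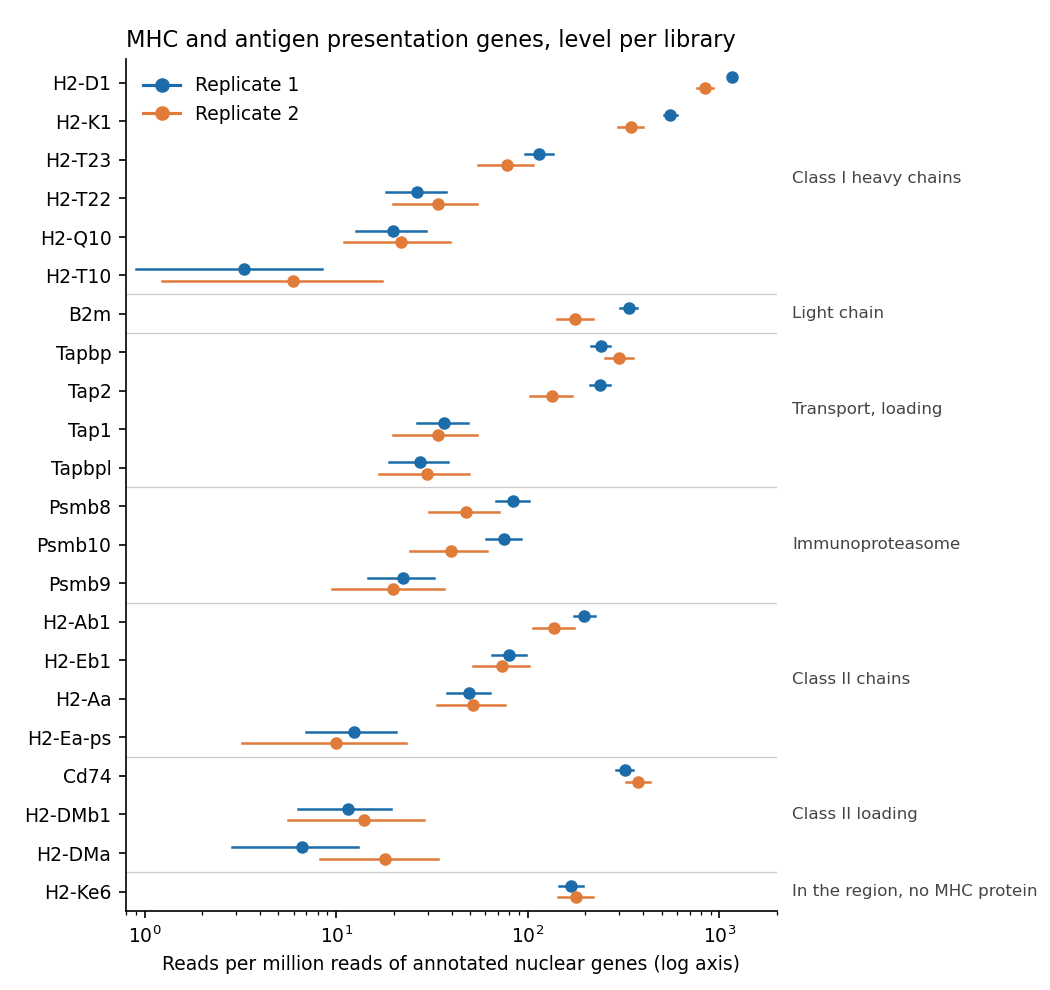
Level of the 22 detected members in each library, in CPM on a log axis, grouped by role, with points for the level and lines for the exact 95% counting interval. H2-D1 is highest in both libraries, at 1165 and 844 CPM, followed by H2-K1 in replicate 1 (556 CPM) and Cd74 in replicate 2 (378 CPM).

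H2-D1 was read at 1165 CPM in replicate 1 and 844 CPM in replicate 2 (1409 and 424 reads), which placed it at rank 95 by mean level. H2-K1 was read at 556 and 344 CPM (672 and 173 reads), rank 297. H2-D1 was thus the higher of the pair in both libraries, and H2-K1 took 32.3% (30.3 to 34.3) and 29.0% (25.4 to 32.8) of the reads of both, with overlapping intervals. B2m, the light chain that every classical heavy chain needs, was read at 336 and 177 CPM (406 and 89 reads). It took 16.3% (14.9 to 17.8) and 13.0% (10.6 to 15.7) of its reads together with those of H2-D1 and H2-K1, so it had fewer reads than the heavy chains in both libraries. The main annotated transcript of B2m has 860 bases, against 1570 for H2-K1 and 2102 for H2-D1. The part of length in these read numbers was not tested.

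Of the other class I genes, H2-T23, which encodes the nonclassical molecule Qa-1, was the highest, at 115 and 77.6 CPM (139 and 39 reads). H2-T22, whose product is a ligand of some gamma delta T cells, was read at 26.5 and 33.8 CPM. H2-Q10, which encodes a secreted class I chain known from liver, was read at 19.8 and 21.9 CPM (24 and 11 reads). H2-T10, annotated as a polymorphic pseudogene, passed the detection limit with 4 and 3 reads. None of its 4 reads in replicate 1 was assigned to an annotated transcript. These 4 genes were the only ones detected among 30 class I genes of this group in M21. H2-M3, which presents formylated peptides, had 11 reads and 1 read, and H2-Q7 had 10 reads and 1 read. A further 7 were read below the detection limit and 17 had no read, among them H2-T3, H2-Bl, H2-M1 and every gene of the H2-M10 group.

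Class I genes are close copies of each other, which matters for reads assigned to the rarer ones. Among 9 class I genes with coding sequences compared in M21, identity ranged from 62.5% to 93.2% over 36 pairs, with H2-Q6 and H2-Q7 the most alike. H2-D1 and H2-K1 were 88.7% identical over an alignment of their coding sequences. H2-Q10 and H2-Q6 were 86.4% identical. The values of H2-Q4, H2-Q6 and H2-Q7, all at 10 reads or fewer per library, and those of H2-Q10 are therefore uncertain, and a CAST/EiJ transcript of a close copy could not be told from them with these files. H2-K2 and H2-T10 were not among the genes compared.

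In the loading pathway, Tapbp was read at 241 and 300.4 CPM (291 and 151 reads), and Tap2, a subunit of the peptide transporter, at 239 and 133 CPM (289 and 67 reads). Tap1, the other subunit, was lower, at 36.4 and 33.8 CPM (44 and 17 reads). The TAP transporter is a pair of TAP1 and TAP2 proteins, yet Tap1 took 13.2% (9.77 to 17.3) and 20.2% (12.3 to 30.4) of the reads of both genes. Tapbpl, which encodes the peptide editor TAPBPR, was read at 27.3 and 29.8 CPM.

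The immunoproteasome subunits replace the standard catalytic subunits where interferon gamma acts, Psmb8 in place of Psmb5, Psmb9 of Psmb6 and Psmb10 of Psmb7. Psmb8 was read at 83.5 and 47.7 CPM, Psmb10 at 75.2 and 39.8 CPM and Psmb9 at 22.3 and 19.9 CPM. Reads of the standard subunits were the more frequent in all 3 pairs and both libraries. Psmb8 took 14.1% (11.6 to 16.9) and 12.2% (7.96 to 17.6) of the reads of its pair, and Psmb9 took 5.67% (3.77 to 8.15) and 7.25% (3.53 to 12.9). Psmb10 came closest to its standard counterpart, at 46.2% (39.1 to 53.4) and 33.9% (22.1 to 47.4).

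**Figure D2:**
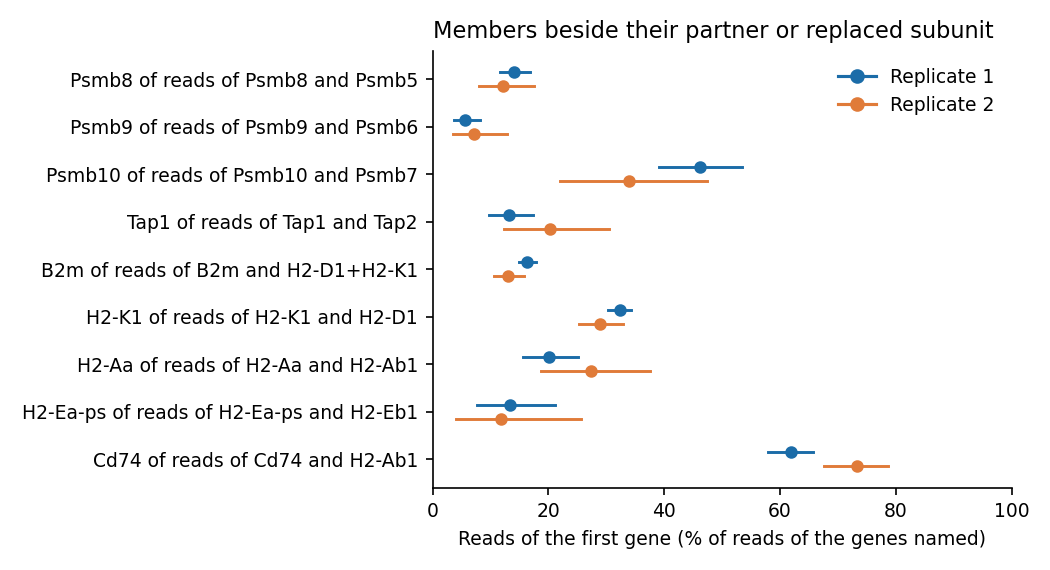
Reads of 1 member as a percentage of its reads together with those of its partner or of the standard subunit that it replaces, per library, with exact 95% intervals. Psmb9 stays below 13% of its pair in both libraries, while Cd74 exceeds H2-Ab1 in both.

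Among class II genes, H2-Ab1, the beta chain of I-A, was read at 198 and 137 CPM (239 and 69 reads). Its alpha chain partner H2-Aa was lower, at 49.6 and 51.7 CPM (60 and 26 reads), or 20.1% (15.7 to 25.1) and 27.4% (18.7 to 37.5) of the reads of both. H2-Eb1, the beta chain of I-E, was read at 80.2 and 73.6 CPM. H2-Ea-ps, the alpha chain gene of I-E, is annotated as a polymorphic pseudogene because C57BL/6 mice do not make the chain. It had 15 and 5 reads, or 12.4 and 9.95 CPM, of which 6 and 2 were assigned to annotated transcripts. H2-Ea-ps took 13.4% (7.69 to 21.1) and 11.9% (3.98 to 25.6) of its reads together with those of H2-Eb1. Which parental copy gave these reads was not tested. H2-Eb2 had no read.

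Cd74, the invariant chain, was the highest member outside class I heavy chains by mean level, at 320.0 and 378 CPM (387 and 190 reads). It took 61.8% (57.9 to 65.6) and 73.4% (67.5 to 78.6) of its reads together with those of H2-Ab1. Of 9 such pairings of members with a partner, this was the only one whose intervals did not overlap between the libraries. H2-DMa and H2-DMb1, the chains of the molecule that exchanges the invariant chain fragment for peptide, were low, at 6.62 and 17.9 CPM and at 11.6 and 13.9 CPM. H2-DMb2 and H2-Ob had at most 1 read in a library and H2-Oa had none. Ciita, the master regulator of class II genes, had 2 reads in replicate 1 and none in replicate 2, where no read allows up to 5.97 CPM. H2-Ke6 lies in the region by name but encodes a hydroxysteroid dehydrogenase and no MHC protein, and was read at 169 and 179 CPM. Without it the summed level was 3238 ± 601 CPM (SD, n = 2).

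Gene by gene, reads of replicate 2 were set against those of replicate 1 in Fisher's exact test (two-sided), with Benjamini-Hochberg adjustment over the 10170 annotated nuclear genes that had 10 reads or more in all. Such p-values compare a pair of libraries and not conditions, the spread between them may be technical, and there is no replicate check. None of the 23 members tested was called at an adjusted p under 0.05 and at least 2-fold, against 9.55% of all genes tested in either direction and 3.59% lower in replicate 2. At an unadjusted p under 0.05 there were 9 members, none at least 2-fold apart, and the share over all genes at that threshold was not counted. The count of called members was also 0 with scaling factors from edgeR and from DESeq2. After thinning replicate 1 to the depth of replicate 2, Tap2 and Psmb10 were called, both lower in replicate 2. That was 2 of 20 members, beside 722 of 8787 genes called in that setting.

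At any fold change, 6 of 23 members (26.1%) passed the adjusted threshold, against 17.9% of all genes. All 6 were lower in replicate 2. Over all genes, 873 of the 1823 that passed were lower, which is 8.58% of all genes tested. H2-D1 differed by -0.46 on the log2 scale (counting SE 0.08, adjusted p = 9.0e-08 by Fisher's exact test) and H2-K1 by -0.69 (SE 0.12, adjusted p = 1.8e-07). The light chain B2m differed by -0.92 (SE 0.17, adjusted p = 2.7e-07). Tap2 differed by -0.83 (SE 0.20, adjusted p = 1.1e-04), H2-Ab1 by -0.52 (SE 0.20, adjusted p = 0.041) and Psmb10 by -0.89 (SE 0.35, adjusted p = 0.049). The classical class I chains, their light chain and a transporter subunit were thus lower in the same library. H2-T23 (-0.55), Tap1 (-0.08), Tapbpl (0.15), Tapbp (0.32) and H2-T22 (0.37), also of class I presentation, did not pass. The results for H2-Ab1 and Psmb10 no longer passed with edgeR or DESeq2 scaling, at adjusted p values of 0.11 for H2-Ab1 and 0.092 for Psmb10 by the same exact test.

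The members that did not pass had log2 ratios from -1.67 in H2-M3 to 1.43 in H2-DMa. Cd74 differed by 0.24 (SE 0.13, adjusted p = 0.20 by Fisher's exact test) and Psmb8 by -0.78 (SE 0.32, adjusted p = 0.069). Tapbp differed by 0.32 (SE 0.14, adjusted p = 0.12), and passed as higher in replicate 2 at 0.42 with edgeR scaling (adjusted p = 0.032) and at 0.41 with DESeq2 scaling (adjusted p = 0.037). Over the 23 members the median log2 ratio was -0.12, with 14 below 0, against -0.06 over all genes tested, of which 5450 of 10170 lay below 0. The libraries also differed for the shortest transcripts. For the 941 tested genes with a main annotated transcript shorter than 1000 bases the median was -0.51 on the log2 scale. The median was -0.04 for the 2359 genes from 1000 to under 2000 bases and 0.05 for the 2372 from 2000 to under 3000. It was -0.01 for the 4041 genes of 3000 bases or more. The transcript of B2m has 860 bases, that of H2-K1 1570, that of H2-D1 2102 and that of Tap2 3442. The part of length in these differences was not tested. Macrophage markers held no called gene and had a median log2 ratio of -0.13 over 9 tested genes. Markers of other cells moved in both directions. In the medulla list Chgb and Pnmt were called lower in replicate 2 and the median was -0.77, while Dbh was higher (0.62, adjusted p = 0.017 by Fisher's exact test). Cyp21a1 of the cortex and Eng of the endothelium were called higher in replicate 2, at log2 ratios of 1.00 and 1.17. The medians of these lists were smaller, at 0.13 for the cortex and 0.01 for the endothelium. Lpl and Ucp1 of fat were higher by 0.86 and 0.84 (adjusted p = 1.1e-18 and 1.9e-15 by the same exact test). Car3 of the fat list was higher by 0.12 (adjusted p = 0.0078), while Cfd was lower (-0.38, adjusted p = 4.0e-11 by that test). The median of the fat list was 0.09. Col3a1 of the fibroblast list was lower (-0.94, adjusted p = 2.6e-06 by that test), while the median of that list was -0.04. The part of tissue makeup in the differences of the members was not tested.

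**Figure D3:**
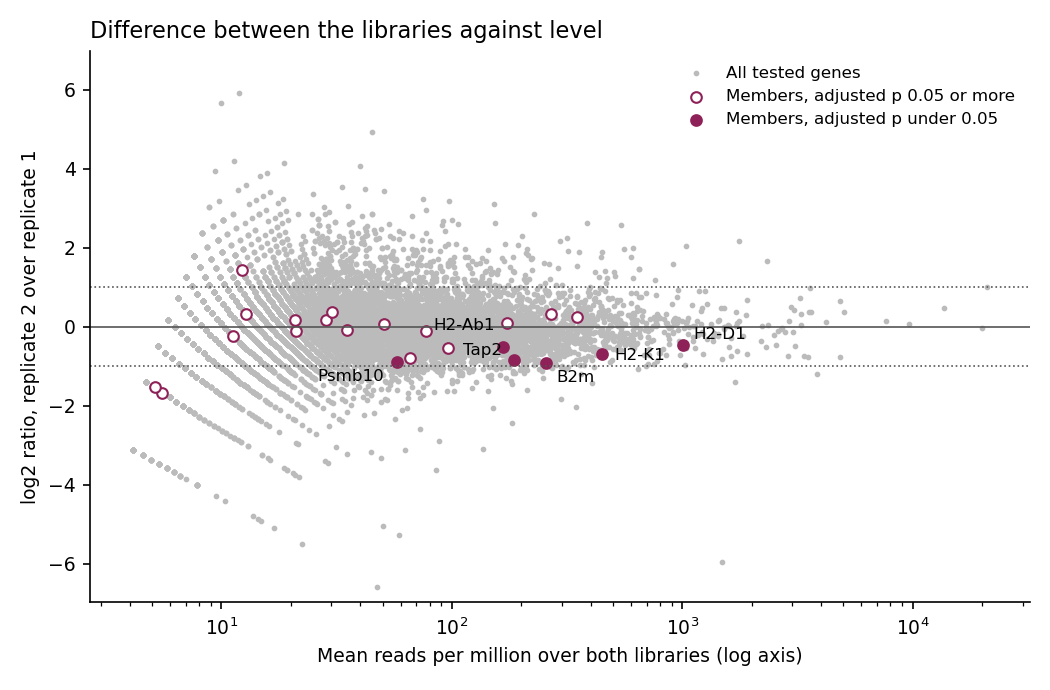
Log2 ratio of replicate 2 over replicate 1 against mean level on a log axis for all 10170 tested genes (grey) and 23 members (circles), filled where the adjusted p was under 0.05, with dotted lines at a 2-fold difference. The 6 filled members lie between -0.92 and -0.46, all inside the dotted lines.

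Genes that act with the members were described from a list of 40 names, of which 38 are in M21 and 33 were detected. Of 32 tested, 9 passed the adjusted threshold at any fold (17.9% of all genes did), 5 lower and 4 higher in replicate 2, and 2 were called at 2-fold (9.55% of all genes). Their median log2 ratio was -0.16. The 2 were Ctsl, an endosomal protease, at 871 and 414 CPM (adjusted p = 4.8e-24 by Fisher's exact test), and Irf2, an interferon response regulator, with 2 and 12 reads (adjusted p = 3.0e-04). Nlrc5, the class I counterpart of Ciita, had 6 reads in replicate 1 and none in replicate 2. Irf1, an interferon response regulator that acts on class I genes, was read at 19.0 and 9.95 CPM. Cd1d1, a class I-like gene outside the MHC that presents lipids, was read at 523 and 430 CPM, which lay between H2-D1 and H2-K1 in replicate 2 and just below H2-K1 in replicate 1. The chaperones Hspa5, at 1539 and 1186 CPM, and Canx, at 416 and 326 CPM, were lower in replicate 2 (log2 ratios of -0.38 and -0.35, adjusted p = 5.4e-07 and 0.039 by Fisher's exact test). Pdia3, of the same group, was higher in replicate 2 (0.27, adjusted p = 0.027 by Fisher's exact test), and Calr differed by 0.09 (adjusted p = 0.85). Among endosomal proteases Ctsb (0.98, adjusted p = 5.3e-126) and Ctsd (0.42, adjusted p = 4.1e-20) were higher in replicate 2 by the same exact test. The standard proteasome subunits Psmb5 (-0.56, adjusted p = 5.8e-05) and Psmb6 (-0.54, adjusted p = 0.0014) were lower by that test. Psmb7 differed by -0.16 (adjusted p = 0.81). The costimulatory genes Cd80, Cd86 and Cd40 had 1 to 4 reads in each library. In the dendritic list, Fscn1 was called higher in replicate 2, at 10.8 and 79.6 CPM (adjusted p = 2.9e-10 by Fisher's exact test), while Zbtb46 was read at 11.6 and 15.9 CPM.

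Each long read was assigned by the authors to a transcript model with a class. Annotated models match M21, incomplete splice matches share only some consecutive introns of an annotated transcript, and new models combine introns in ways that M21 lacks. The class new in catalog does so mainly with annotated splice sites, and the class new not in catalog with a site outside the annotation. Of member reads, 81.1% (79.9 to 82.2) in replicate 1 and 84.8% (82.9 to 86.6) in replicate 2 were in annotated transcripts, or 83.0% ± 2.66 (SD, n = 2), beside 76.5% and 81.8% over all annotated nuclear genes. The share of members was above that of all genes in both libraries. Models new not in catalog took 3.99% and 4.06% of member reads, beside 3.09% and 3.74% over all genes. Most new models were seen once: 81 of 117 new spliced member models in replicate 1 had 1 read, and 47 of 59 in replicate 2.

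**Figure D4:**
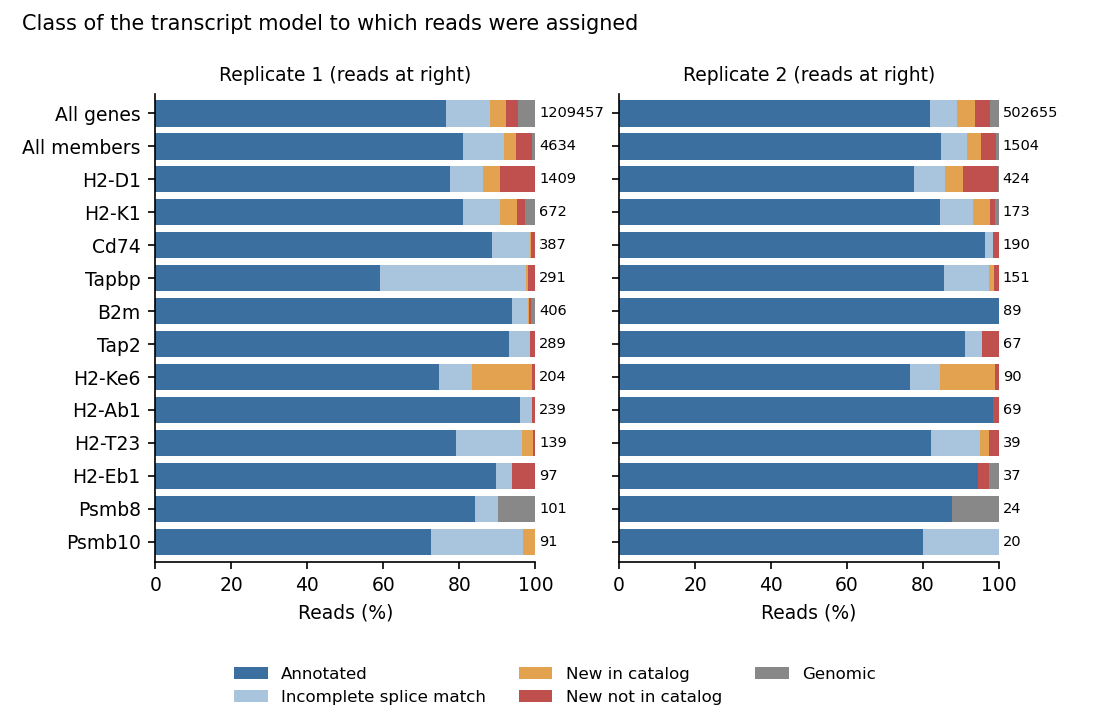
Share of reads in each class of transcript model, for all annotated nuclear genes, all members and the 12 members with at least 90 reads in replicate 1, with read numbers at the right of each bar. Tapbp has the widest change between libraries in this plot, from 59.1% to 85.4% annotated, and H2-D1 and H2-Ke6 have a larger share of reads in new models than the other members shown.

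H2-D1 held most of the reads in models new not in catalog, with 133 of its 1409 reads in replicate 1 (9.44%, 7.96 to 11.1) and 39 of 424 in replicate 2 (9.20%, 6.62 to 12.4). Incomplete reads that keep the 3′ end made up 35.1% (29.6 to 40.8) of Tapbp reads in replicate 1 and 11.9% (7.22 to 18.2) in replicate 2. Over all genes that class took 7.25% and 5.41%. Counted in annotated transcripts alone, Tapbp had 172 and 129 reads and was higher in replicate 2 by 0.76 on the log2 scale (adjusted p = 1.3e-04 by Fisher's exact test), so its difference between the libraries depended on which classes were counted. Psmb10 had 24.2% (15.8 to 34.3) and 20.0% (5.73 to 43.7) of such incomplete reads, and H2-T23 had 16.5% (10.8 to 23.8) and 12.8% (4.30 to 27.4). Psmb8 had 10 of 101 and 3 of 24 reads in a model of the genomic class, which fits none of the other classes.

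Across members, 31 transcripts of 20 genes had at least 3 reads in both libraries, 24 annotated and 7 new, and 14 of the genes had 1 such transcript. B2m-201 took 93.8% (91.0 to 96.0) and 100% (95.9 to 100) of B2m reads, H2-Ab1-201 took 95.4% and 98.6%, and Tap2-201 took 92.0% and 91.0%. H2-D1-202 took 77.4% in each library. These genes were read almost wholly, or in the case of H2-D1 mainly, as 1 transcript. Main transcript shares were set against each other in Fisher's exact test (two-sided), over the 2098 genes that had 50 reads or more in each of the libraries. None of 8 members was called at an adjusted p under 0.05 and 10 percentage points, against 16.5% of all genes tested. With no minimum difference none was called either, against 20.4% of all genes. At an unadjusted p under 0.05 by that exact test there were 2 of 8, B2m (adjusted p = 0.060) and Tapbp (adjusted p = 0.16). The share over all genes at that unadjusted threshold was not counted. The share of all genes called depended on incomplete and genomic reads. With these left out of the totals, 15 of 1887 genes (0.795%) and none of the 8 members were called.

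H2-K1, Tapbp and Cd74 were each read as a mixture of a pair of annotated forms. In H2-K1, the 27 bases in capitals above were present in 296 of 643 reads that cover the site in replicate 1 (46.0%, 42.1 to 49.98) and in 91 of 171 in replicate 2 (53.2%, 45.4 to 60.9). The longer form adds 9 codons before the shared stop codon. In Tapbp, 117 of 253 reads in replicate 1 (46.2%, 40.0 to 52.6) and 76 of 145 in replicate 2 (52.4%, 44.0 to 60.8) lacked the 3 bases, which come to 1 codon. In both genes the forms were close to even in each library, and the intervals overlapped between libraries.

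In Cd74, an exon of 192 bases, or 64 codons, separates the longer Cd74-202 from Cd74-201. The longer form of the invariant chain carries a thyroglobulin domain, known for acting on cathepsins. The exon was present in 134 of 377 reads in replicate 1 (35.5%, 30.7 to 40.6) and in 88 of 188 in replicate 2 (46.8%, 39.5 to 54.2). The intervals overlapped slightly, and the exon share itself was given no test. A different measure, the share of Cd74-201 among all Cd74 reads, was 57.1% and 51.1% and did not pass the exact test (adjusted p = 0.42). With incomplete and genomic reads left out of the totals, Cd74 had an unadjusted p under 0.05 by that test (adjusted p = 0.37).

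The new form with the most reads was the H2-D1 transcript that leaves out the first 114 bases of exon 3, which encodes the alpha 2 domain of the peptide groove. It was present in 93 of 1349 reads in replicate 1 (6.89%, 5.60 to 8.38) and 27 of 412 in replicate 2 (6.55%, 4.36 to 9.39). The loss comes to 38 codons and keeps the reading frame. The 15 additional bases of the H2-D1-201 stretch above were in 34 of 1336 reads (2.54%, 1.77 to 3.54) and 10 of 393 reads (2.54%, 1.23 to 4.63), while H2-D1-201 itself had no read. A last H2-D1 form gained 45 bases and lost an exon of 33 bases, in 1.30% (0.760 to 2.08) and 1.04% (0.285 to 2.65) of reads. Intron retention in H2-D1 was seen for an intron of 139 bases, in 4.94% (3.87 to 6.21) and 6.27% (4.13 to 9.05) of reads, and for the first intron of 192 bases, in 2.01% and 2.69%. Each of these H2-D1 forms took a similar share in the libraries, with overlapping intervals. Both libraries are of the same strain and were placed on the C57BL/6J sequence. Whether reads of the CAST/EiJ copy or of a close copy had a part in these forms was not tested.

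H2-Q10, read in few molecules, was seen without an exon of 33 bases in 8 of 21 reads (38.1%, 18.1 to 61.6) and 4 of 11 reads (36.4%, 10.9 to 69.2). The stretch of that exon and its flanking introns does not lie wholly inside the annotated coding span. These reads share the uncertainty of close copies given above. H2-Ke6 held 21 additional bases in 12.4% (8.00 to 18.0) and 9.88% (4.36 to 18.5) of reads, skipped an exon of 43 bases in 3.50% and 4.49%, and kept an intron of 170 bases in 5.47% and 4.49%. Of the 12 alternative forms followed, the intervals of all 12 overlapped between libraries, and 8 changed the coding span by a multiple of 3 bases. These 8 include the kept intron of 192 bases in H2-D1, and stop codons within added bases were not looked for.

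**Figure D5:**
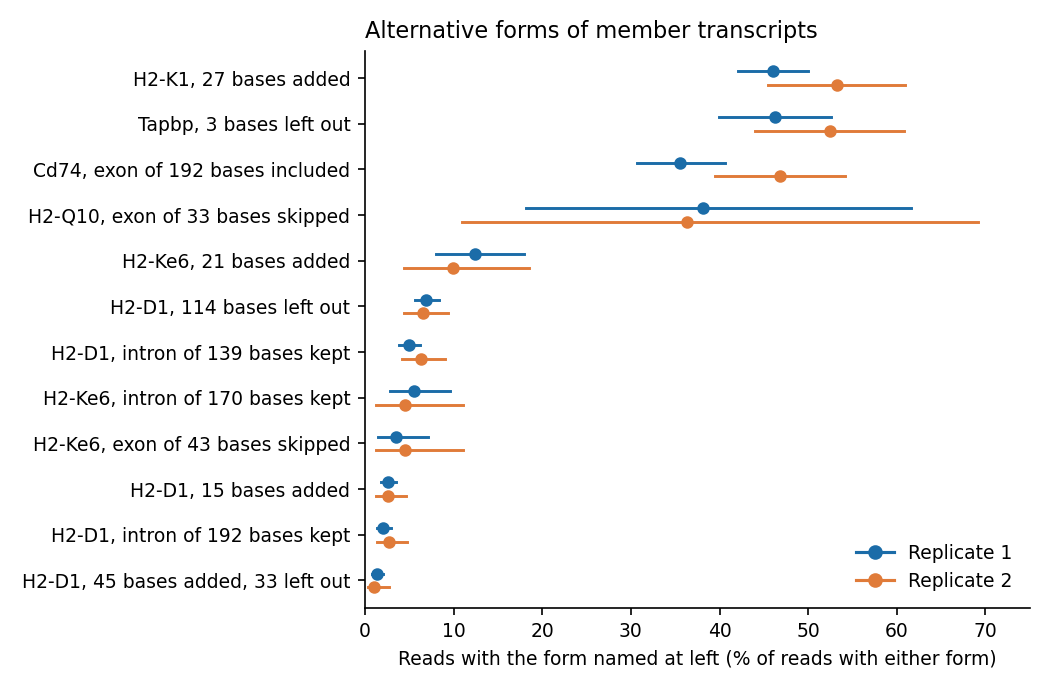
Share of reads with the named form among reads that show either form at that site, for 12 alternative forms in each library, with exact 95% intervals. The forms of H2-K1, Tapbp and Cd74 lie between 35.5% and 53.2%, and those of H2-D1 lie below 7%.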

How the data were processed

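The authors deposited whole-number read counts per transcript model with matching models, on mm10 with GENCODE M21 per the file headers. The labels' protocols name version 3.0 of an ENCODE long-read pipeline document, and new models carry TALON identifiers. For aligner, TALON version and platform, nothing is given in the sources used here. Annotated member models had the same exons as in M21 (53 of 53 in replicate 1, 38 of 38 in replicate 2). Counts were summed per gene over all classes, leaving out spike-ins, mitochondrial genes and new genes. Total reads were 1277310 and 520388.

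edgeR's quasi-likelihood test has no residual degrees of freedom with 1 library a side, so Fisher's exact test per gene was used. Log2 ratios had 0.5 reads added. Scaling alternatives came from edgeR 4.0.16 (TMM) and DESeq2 1.42.0 (median of ratios) in R 4.3.3, and tests from scipy 1.17.1. Both tests were run on simulated counts with planted shifts and counting error only. That check does not cover any further spread between libraries. Share intervals are exact Clopper-Pearson 95% bounds, and like the floors they cover counting error only. An alternative form was followed where its transcript had at least 3 reads in both libraries and differed from the main transcript by 1 contiguous change, and was given no test. Every member with a read was accounted for, with values in both libraries where it had at least 3 reads in each. Members and lists were chosen with earlier results of these data known.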

Additional observations from a re-analysis of the deposited data

Results flagged for a closer look

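Reads of new genes that the authors placed antisense to a member were outside the counts above, and exceeded the limit that a count of 0 allows in 4 cases. New genes antisense to H2-K1 had 14 reads in replicate 1 and 2 in replicate 2. Those antisense to H2-D1 had 8 reads in replicate 1 and 7 in replicate 2, and those antisense to Tapbp had 5 and 3.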

How the results depend on the processing

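No paired analysis was possible because the 2 libraries form 1 group. Under the alternatives tried, the summed level stayed between 3238 and 3580 CPM, with 2992 to 3831 when either replicate was left out. Detected members numbered 18 to 28, and the share in annotated transcripts was 81.1% to 84.8% with either replicate left out and 83.7% without genomic reads. The count of called members was 0 except with no fold minimum (6 of 23) and with the deeper library thinned (2 of 20). All genes called in those settings numbered 1823 of 10170 and 722 of 8787. No member was called in main transcript share under any alternative, while the share of all genes called fell from 16.5% to 0.795% with spliced models only. Without a read minimum, H2-Ab1 (adjusted p = 0.068) and Psmb10 (adjusted p = 0.081) did not pass Fisher's exact test, and Psmb10 did not in annotated transcripts alone (adjusted p = 0.11). H2-Ab1 did not pass after thinning (adjusted p = 0.073). Psmb8 passed with 50 reads needed (adjusted p = 0.047) and without the genomic class (adjusted p = 0.048). Depth limits the rarer members most, since 12 members with a read were under the detection limit and shared 48 and 11 reads.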
